A study of Mus musculus with 17 samples.

Results

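The tumors described here are the AB12 tumors collected on day 10 (d10), those of mice treated with anti CTLA-4 set against those of untreated mice. They were chosen by their sample labels, and they are 8 of the 17 tumors of the series, 3 treated and 5 untreated. AB12 is a mouse mesothelioma cell line. It had been injected i.p. into female BALB/c mice, 8 weeks old, and each library held RNA of the tumor of a separate mouse, so all groups share the strain, the sex, the cell line and the site. The treated mice received clone 9D9, an antibody that blocks CTLA-4, at 200 µg an injection into the peritoneum. The study gave early treatment on d6 and d10 for tumors collected on d14, and the injections that the treated d10 tumors had received are not given in the sources used here. The untreated d10 tumors are given without a control antibody, so treatment cannot be told apart from injection of an antibody as such. Gene expression was measured by RNA-seq as uniquely mapped read counts, and the 5 untreated tumors were also taken as 2 sets, replicates 1 to 3 and replicates 4 and 5, because replicates 4 and 5 are the ones closest to the treated tumors in pseudogene counts.

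CTLA-4 is an inhibitory receptor of T cells that competes with the costimulatory receptor CD28 for the ligands CD80 and CD86. It is carried at high levels by regulatory T cells, whose defining transcription factor is Foxp3, and it appears on other T cells after activation. Antibodies against it can both block the receptor and bind cells that carry it. In bulk tumor RNA, fewer cells of a type and less RNA per cell cannot be told apart, and this holds for every gene below.

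Total counts of the d10 tumors ranged from 51159050 to 88029944, with 71233601 to 84480503 in the treated tumors. The 2 untreated sets differed in several measures of the libraries. Mitochondrial genes took 1.38 to 1.95% of the counts in untreated replicates 1 to 3, 0.88 to 0.895% in replicates 4 and 5 and 0.576 to 0.969% in the treated tumors, and Mir6236, a microRNA gene, held 3964 to 12332, 141 to 176 and 205 to 1244 counts in the same order. Over 707 pseudogenes the root mean square distance on the log2 scale was 0.97 to 1.43 between treated tumors and replicates 4 and 5, 1.64 to 1.95 between treated tumors and replicates 1 to 3, and 1.76 to 2.04 between the 2 untreated sets. In another measure the treated tumors lay above both untreated sets. The gene Gm42418 took 0.475, 1.15, 0.591, 1.72 and 0.59% of the counts in untreated replicates 1 to 5. In treated replicates 1 to 3 it took 2.12, 2.26 and 2.41%. LincRNA genes took 0.951, 1.65, 1.12, 2.09 and 1.01% untreated and 2.64, 2.66 and 2.89% treated. This share rose and fell with that of Gm42418, so the 2 shares are not separate measures. Replicates 4 and 5 thus do not match the treated tumors in every measure. The read length was 75 or 100 bases on one of 2 instruments, and which library was read on which is not given in the sources used here. The counts over all genes are therefore given against all 5 untreated tumors, against replicates 4 and 5, and against replicates 1 to 3. A further edgeR fit, added after the data had been seen, kept the 2 untreated sets as separate groups and compared the treated tumors with the mean of both; it is called the 2-set fit below. Many single genes are given by the 2-set fit without a difference from each set alone, and for those no agreement between the sets is claimed.

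**Figure D1:**
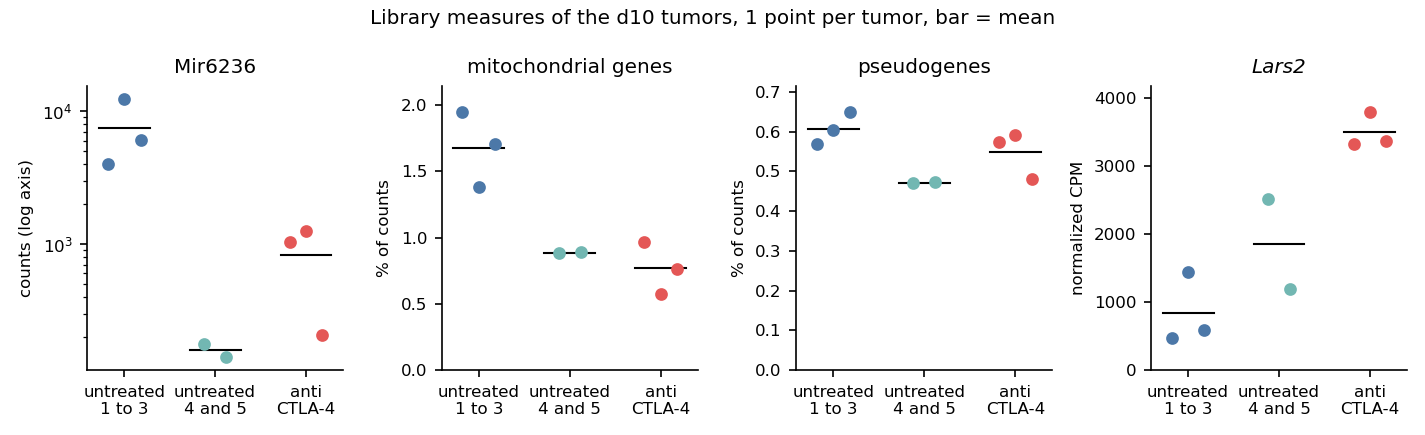
Counts of Mir6236 (log axis), the share of counts in mitochondrial genes and in pseudogenes (%), and normalized CPM (counts scaled to the library total) of Lars2 in each d10 tumor; each point is 1 tumor and each bar the mean of its set. The mitochondrial share of untreated replicates 1 to 3 (1.38 to 1.95%) lies above that of every other d10 tumor, and Lars2 lies at 3320 to 3800 CPM in the treated tumors, above every untreated tumor.

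Against all 5 untreated tumors very few genes differed. A gene was called when the Benjamini-Hochberg adjusted p of edgeR's quasi-likelihood test was below 0.05 and the fold change above 2. On these terms 3 of 17258 genes tested (0.0174%) were called higher and 0 lower, all 3 were pseudogenes, and 0 protein coding genes were called, with 2329 genes at an unadjusted p below 0.05 and 223 called by DESeq2. Against replicates 4 and 5, 60 of 17125 genes (0.35%) were called higher and 36 (0.21%) lower, of which 15 and 9 were protein coding. Against replicates 1 to 3, 329 of 16963 genes (1.94%) were called higher and 823 (4.85%) lower, of which 130 and 414 were protein coding. The 2-set fit called 159 of 17839 genes (0.891%) higher and 160 (0.897%) lower, of which 27 and 127 were protein coding. Against replicates 1 to 3 the count stayed at 857 to 1247 when 1 tumor was left out. The other counts rested on single tumors. Against all 5 untreated tumors 115 genes were called without untreated replicate 5 and 0 without untreated replicate 1 or 2 or any 1 treated tumor. Against replicates 4 and 5, 682 were called without untreated replicate 5, 0 without treated replicate 1 or 2 and 3 without treated replicate 3. In the 2-set fit the count ranged from 70 without treated replicate 1 to 577 without untreated replicate 5. Levels of all 3 treated tumors lay above those of all 5 untreated tumors for 670 of 17839 genes (3.76%) and below them for 828 (4.64%). In the text that follows, levels are TMM-normalized CPM, given for untreated replicates 1 to 5 and then for treated replicates 1 to 3, and differences are log2 fold changes, treated minus untreated.

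The targeted gene could not be read from these counts. Ctla4 had 0, 2, 1, 0 and 0 counts in the untreated tumors and 1, 0 and 0 in the treated tumors. Both groups lie at or under a floor of 3 counts in every library, so no fold is given. These counts are below those of Foxp3, which had 98 to 281 counts in the untreated tumors, and the reason for the near absence of Ctla4 reads was not tested. The other genes of the axis were measured well. Cd28, the costimulatory receptor that CTLA-4 competes with, had a difference of 0.01 (SE 0.13) against all 5 untreated tumors, with an edgeR adjusted p of 0.97. Icos, a costimulatory receptor induced on activated T cells, was at 10.7, 14.7, 9.64, 10.5 and 8.73 CPM untreated and at 15.1, 9.69 and 11.9 CPM treated. Its groups overlapped, and the difference of 0.17 (SE 0.20) had an edgeR adjusted p of 0.70. For the ligands the differences were 0.20 (SE 0.13) for Cd80 and -0.35 (SE 0.17) for Cd86, with edgeR adjusted p of 0.49 and 0.40.

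Foxp3, the transcription factor that defines regulatory T cells, was lower in every treated tumor than in any untreated tumor. It was at 2.72, 1.51, 2.70, 3.18 and 1.46 CPM in the untreated tumors and at 0.221, 0.435 and 0.494 CPM in the treated tumors. All 3 treated tumors lay below all 5 untreated tumors, in counts 19, 30 and 35 against 98 to 281. The difference was -2.60 (SE 0.39) against all 5 untreated tumors, which did not pass the test (edgeR adjusted p = 0.074). It was -2.62 (SE 0.44) against replicates 4 and 5, again short of the threshold (edgeR adjusted p = 0.051), and -2.59 (SE 0.34) against replicates 1 to 3, where it was called (edgeR adjusted p = 0.0011). The 2-set fit also called it, at -2.60 (SE 0.38, edgeR adjusted p = 0.0085), and the call remained when each of the 8 libraries was left out in turn, at -2.84 to -2.27. Foxp3 shares transcript sequence with the neighbouring Ccdc22 and Flicr, and whether counting used strand is not stated.

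Izumo1r, which encodes the folate receptor 4 of regulatory T cells and was chosen after its values were seen, had the same order of groups. It was at 1.49, 1.42, 1.23, 2.61 and 1.47 CPM untreated and at 0.419, 0.435 and 0.649 CPM treated, without overlap. The 2-set fit called it lower at -1.75 (SE 0.27, edgeR adjusted p = 0.0096), but not once treated replicate 1 was left out (edgeR adjusted p = 0.058), and against all 5 untreated tumors the edgeR adjusted p was 0.13. The other genes of the regulatory T cell list were not called. Of 11 members tested, Foxp3 was the 1 called lower in the 2-set fit and 0 were called higher, beside 0.897% of all genes called lower. The median difference was -0.06 beside 0.00 over all genes. Il2ra, the interleukin 2 receptor alpha chain, which activated effector T cells also carry, was at 26.2, 32.4, 26.5, 20.3 and 23.8 CPM untreated and at 46.3, 29.2 and 37.0 CPM treated, a difference of 0.58 (SE 0.14) in the 2-set fit that was under the 2-fold limit (edgeR adjusted p = 0.047). Ikzf2, the Helios transcription factor, had a difference of 0.22 (SE 0.16) there, with an edgeR adjusted p of 0.44. The summed level of the list was 72 to 87.9 CPM untreated and 75.3 to 101 CPM treated, so it overlapped.

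**Figure D2:**
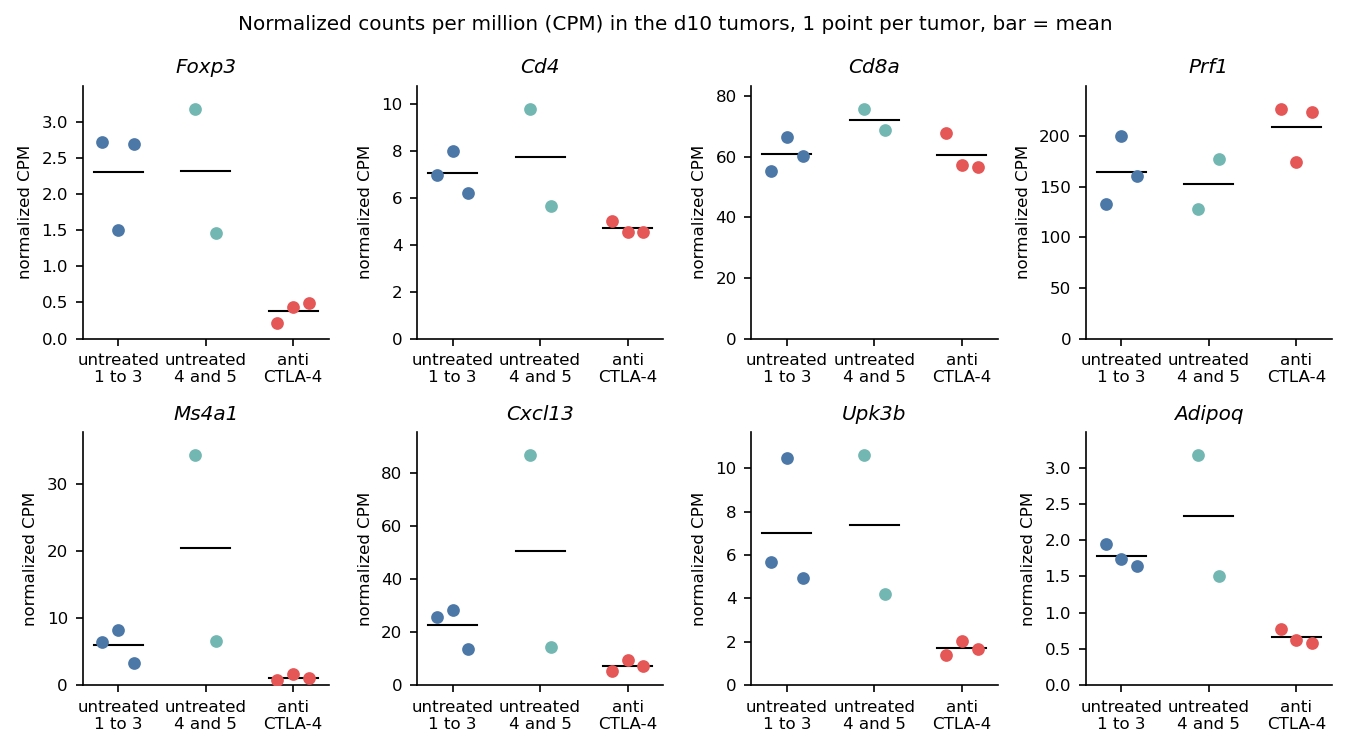
Normalized CPM of 8 genes in the d10 tumors; each point is 1 tumor, each bar the mean of its set, and every vertical axis starts at 0. Foxp3, Cd4, Ms4a1, Cxcl13, Upk3b and Adipoq are lower in all 3 treated tumors than in all 5 untreated tumors, whereas Cd8a and Prf1 overlap; untreated replicate 4 is far above the other tumors for Ms4a1 (34.2 CPM) and Cxcl13 (86.8 CPM).

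The coreceptors of helper and killer T cells and the listed T cell receptor genes were not called. Cd4, the coreceptor of helper and regulatory T cells, was at 6.99, 8, 6.2, 9.80 and 5.66 CPM untreated and at 5.03, 4.54 and 4.54 CPM treated. The groups did not overlap, but the difference of -0.64 (SE 0.19) did not pass the test (edgeR adjusted p = 0.26, and 0.068 in the 2-set fit). Cd8a, a chain of the killer T cell coreceptor, was at 55.2 to 75.8 CPM untreated and at 67.9, 57.4 and 56.6 CPM treated. Its difference was -0.11 (SE 0.12, edgeR adjusted p = 0.70), and that of its partner chain Cd8b1 was -0.35 (SE 0.14, edgeR adjusted p = 0.34). For Cd3e, a signaling chain of the T cell receptor, the difference was -0.21 (SE 0.10, edgeR adjusted p = 0.37). Of the 20 genes of the T cell receptor and proximal signaling list, 0 were called in any of the 4 fits. All 3 treated tumors were below all 5 untreated tumors for 7 of them, namely Cd2, Cd247, Cd4, Lat, Skap1, Trac and Trbc2. Over all genes this held for 828 of 17839 (4.64%). The list's median difference was -0.24 beside -0.01 over all genes. Outside the list, 1 constant gene of T cell receptors was called lower in the 2-set fit, and 1 variable gene higher against replicates 1 to 3. Over all genes 0.897% and 1.94% were called so, in the same order. Trac, the constant part of the T cell receptor alpha chain, was at 39.1, 45.9, 36.0, 44.2 and 42.4 CPM untreated and at 34.5, 31.5 and 31.6 CPM treated.

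Genes of the killer effector list were not called in any of the 4 fits. Prf1, the pore-forming perforin, was at 133, 200, 161, 128 and 178 CPM untreated and at 227, 175 and 224 CPM treated. The treated values overlap the upper part of the untreated range, and the difference of 0.38 (SE 0.16) had an edgeR adjusted p of 0.35. Gzmb, the granzyme B protease, had a difference of 0.01 (SE 0.18, edgeR adjusted p = 0.98), and the killer effector list of 13 genes had a median of -0.09. The 6 granzymes that lie in a cluster (Gzmc to Gzmg and Gzmn) had a median of 0.85 against all 5 untreated tumors, 1.40 against replicates 4 and 5 and 0.60 against replicates 1 to 3, with 0 called. Untreated replicate 4 moved these values, and in the 2-set fit without untreated replicate 5, which leaves replicate 4 as its set, Gzmc, Gzmd, Gzme, Gzmf and Gzmg were all called higher, Gzmg at 2.37 (edgeR adjusted p = 0.00097) and Gzmc at 1.71 (edgeR adjusted p = 0.0016). Without untreated replicate 4 none of the 5 was called, with Gzmf at 0.54 and Gzmg at 0.78. The summed level of the 6 was 642, 1269, 859, 143 and 875 CPM untreated and 1651, 1156 and 1385 CPM treated, and untreated replicate 4 held the lowest sum. Gzmg alone was at 27.3 CPM in that tumor, against 176 to 370 CPM in the other untreated tumors and 357 to 524 CPM in the treated tumors.

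The interferon gamma gene differed between the untreated sets. Ifng, the interferon gamma gene, was at 19.9, 24.2 and 18.1 CPM in untreated replicates 1 to 3, at 10.2 and 9.29 CPM in replicates 4 and 5, and at 15.0, 12.6 and 12.2 CPM in the treated tumors. The treated tumors thus lay between the 2 untreated sets. The difference was -0.64 (SE 0.14, edgeR adjusted p = 0.0083) against replicates 1 to 3, under the 2-fold limit, and 0.43 (SE 0.14, edgeR adjusted p = 0.17) against replicates 4 and 5. Cxcl9, a chemokine induced by interferon gamma, was at 450 to 730 CPM untreated and at 430, 469 and 365 CPM treated, a difference of -0.52 (SE 0.16, edgeR adjusted p = 0.27). Cxcl10 had a difference of -0.05 (SE 0.11, edgeR adjusted p = 0.84). Of the 20 genes of the IFN gamma response list and the 25 genes of the type I IFN response list, 0 were called in any of the 4 fits, with medians of -0.08 and -0.14 against all 5 untreated tumors.

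Among inhibitory receptors, Pdcd1, which encodes PD-1, was at 24, 35.9, 25.4, 45.6 and 43.1 CPM untreated and at 47, 50 and 46.3 CPM treated. The treated tumors were above all untreated tumors, but by a margin that is small beside the spread of the untreated tumors. The difference was 0.46 (SE 0.21, edgeR adjusted p = 0.38) against all 5, 0.10 (SE 0.08, edgeR adjusted p = 0.53) against replicates 4 and 5, and 0.76 (SE 0.14, edgeR adjusted p = 0.0046) against replicates 1 to 3, under the 2-fold limit. Lag3 and Havcr2 (TIM-3) had differences of -0.05 (SE 0.22) and 0.27 (SE 0.18), with edgeR adjusted p of 0.93 and 0.53. Btla, an inhibitory receptor carried by B cells as well as T cells, was at 6.03, 6.77, 5.61, 12.7 and 5.43 CPM untreated and at 2.98, 3.45 and 2.54 CPM treated. It was the 1 gene of the 12 inhibitory receptors and exhaustion factors to be called in the 2-set fit, beside 0.897% of all genes called lower there. Its difference was -1.32 (SE 0.25, edgeR adjusted p = 0.022), and its edgeR adjusted p was 0.19 against all 5 untreated tumors. The call was lost without any 1 treated tumor, untreated replicate 1 or untreated replicate 4, at -1.57 to -0.95 over the 8 fits that leave out 1 library.

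**Figure D3:**
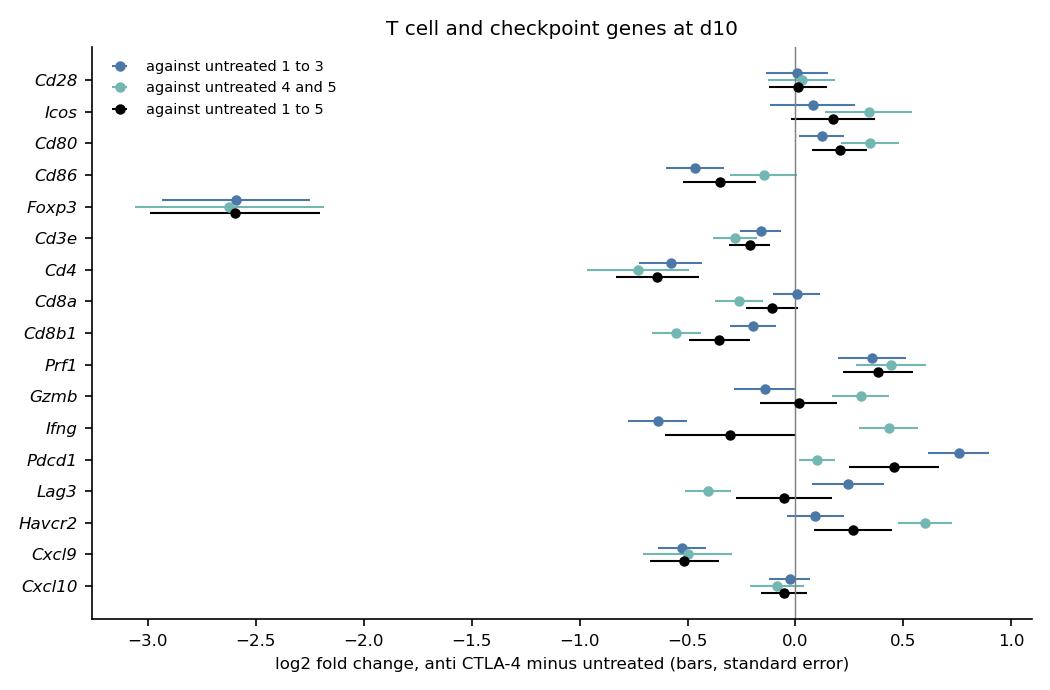
Log2 fold change of T cell and checkpoint genes at d10, treated minus untreated, with the standard error as a bar, against untreated replicates 1 to 3, replicates 4 and 5, and all 5. Foxp3 lies near -2.6 against each set, while Cd8a, Gzmb, Ifng and Lag3 have opposite signs against the 2 untreated sets.

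Of the gene lists, that of B cell genes had the lowest median against all 5 untreated tumors. Cd79a, a signaling chain of the B cell receptor, was at 8.62, 9.97, 3.06, 48.4 and 8.67 CPM untreated and at 0.953, 2.38 and 1.27 CPM treated. Ms4a1, which encodes CD20, was at 6.42, 8.17, 3.25, 34.2 and 6.53 CPM untreated and at 0.698, 1.64 and 0.988 CPM treated. Neither gene's groups overlapped, and untreated replicate 4 stood far above the other untreated tumors. Both were called lower against replicates 4 and 5, at -4.25 (SE 0.68, edgeR adjusted p = 0.046) for Cd79a and -4.24 (SE 0.66, edgeR adjusted p = 0.044) for Ms4a1. They were also called lower against replicates 1 to 3, at -2.24 (SE 0.44, edgeR adjusted p = 0.0057) for Cd79a and -2.43 (SE 0.37, edgeR adjusted p = 0.0019) for Ms4a1. Against all 5 untreated tumors neither passed the test (edgeR adjusted p = 0.22 and 0.19). In the 2-set fit the calls of both were lost when single libraries were left out, that of Cd79a without untreated replicate 1 or any 1 treated tumor, and that of Ms4a1 without untreated replicate 1 or treated replicate 1 or 3, and their differences lay at -3.70 to -2.38 and -3.71 to -2.50.

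Of the 12 B cell genes tested, 5 were called lower against replicates 4 and 5, 8 against replicates 1 to 3 and 8 in the 2-set fit, and 0 were called higher. Over all genes 0.21%, 4.85% and 0.897% were called lower, in the same order. The list's median was -3.04 against all 5 untreated tumors and -2.84 in the 2-set fit, beside -0.01 and 0.00 over all genes. Fcer2a, the low-affinity IgE receptor CD23 of follicular B cells, had the largest difference, -5.17 (SE 0.74) against replicates 4 and 5 (edgeR adjusted p = 0.036). Cr2, complement receptor 2, and Pou2af1, a B cell transcriptional coactivator, were at -4.31 (SE 0.67) and -3.06 (SE 0.50) there, with edgeR adjusted p of 0.044 and 0.048. Pax5, the B cell lineage transcription factor, did not share the pattern. It was at 20.0 to 33.2 CPM untreated and at 28.9, 23.5 and 30.0 CPM treated, with a difference of 0.02 (SE 0.17, edgeR adjusted p = 0.97). Cd22, an inhibitory coreceptor of B cells, was at 12.1 to 34.4 CPM untreated and at 17.2, 12.5 and 15.1 CPM treated (edgeR adjusted p = 0.47). The summed level of the list was 76.5, 91.0, 59.9, 271 and 83.7 CPM untreated and 52.4, 48.6 and 52.7 CPM treated, without overlap.

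Of 149 immunoglobulin genes tested in the 2-set fit, out of 432 in the annotation, 19 were called lower and 0 higher, with a median of -1.57, and 15 were lower in all treated tumors than in all untreated tumors. Against replicates 4 and 5 27 of 140 were called lower, and against replicates 1 to 3 13 of 100 lower and 3 higher. Over all genes 0.897%, 0.21% and 4.85% were called lower in these fits, in the same order, and 1.94% higher against replicates 1 to 3. All treated tumors were below all untreated tumors for 4.64% of all genes. Igkc, the constant part of the kappa light chain, was at 466, 426, 81.2, 895 and 270 CPM untreated and at 84.1, 113 and 74.3 CPM treated. Untreated replicate 3 lay within the treated range, so the groups overlapped. The difference was -2.71 (SE 0.43, edgeR adjusted p = 0.046) against replicates 4 and 5. Summed over all immunoglobulin genes, levels were 1232, 1099, 223, 2952 and 881 CPM untreated and 354, 448 and 304 CPM treated, so untreated replicate 3 was below all treated tumors. Reads of these closely related segments can be shared between them, so single segments are uncertain.

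Cxcr5 and Cxcl13, genes of the B cell zones of lymphoid tissue, had the same order of tumors. Cxcr5, the receptor that brings B cells and follicular helper T cells to follicles, was at 1.46, 2.76, 0.926, 12.6 and 2.52 CPM untreated and at 0.314, 0.856 and 0.564 CPM treated. Cxcl13, its ligand, chosen after its values were seen, was at 25.9, 28.2, 13.5, 86.8 and 14.5 CPM untreated and at 5.24, 9.31 and 7.34 CPM treated. All treated values were below all untreated values for both, and replicate 4 was again the highest. The 2-set fit called both lower, at -2.66 (SE 0.58, edgeR adjusted p = 0.033) for Cxcr5 and -2.22 (SE 0.51, edgeR adjusted p = 0.037) for Cxcl13, whereas against all 5 untreated tumors the edgeR adjusted p was 0.27 and 0.23. Both calls of the 2-set fit were lost without untreated replicate 1 or 2 or any 1 treated tumor, that of Cxcr5 also without untreated replicate 4, at -3.05 to -1.86 and -2.60 to -1.31.

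Among dendritic cell genes the differences were smaller. Xcr1, the chemokine receptor of cross-presenting dendritic cells, was at 6.79, 6.96, 6.82, 8.34 and 5.33 CPM untreated and at 3.19, 3.28 and 2.37 CPM treated. The groups were apart, with little spread inside each. The 2-set fit called it at -1.22 (SE 0.18, edgeR adjusted p = 0.0090), a call that remained without each library in turn, while against all 5 untreated tumors the edgeR adjusted p was 0.078. Clec9a, a receptor for dead cells on the same dendritic cells, was at 12, 12.3, 12.4, 11.8 and 6.99 CPM untreated and at 6.17, 4.74 and 5.09 CPM treated, with -1.01 (SE 0.17, edgeR adjusted p = 0.015) in the 2-set fit. In that fit 5 of the 12 dendritic cell genes were called lower and 0 higher, with a median of -0.67, the other 3 being Flt3, a growth factor receptor of dendritic cells, Siglech, a marker of plasmacytoid dendritic cells, and Cd209a, a lectin of dendritic cells. Without single libraries the calls of these 4 genes other than Xcr1 were lost in several fits, that of Clec9a without untreated replicate 1 or 4 or treated replicate 2 or 3, at -1.17 to -0.79. Against replicates 4 and 5, 0 of the 12 were called, with a median of -0.72, and against replicates 1 to 3, 6 were called lower. Over all genes 0.897% were called lower in the 2-set fit, 0.21% against replicates 4 and 5 and 4.85% against replicates 1 to 3. The summed level of the list overlapped, at 87.3 to 152 CPM untreated and 86.9 to 96.3 CPM treated.

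Of the 12 mast cell and eosinophil genes tested against replicates 1 to 3, 8 were called lower, against 3 of 13 in the 2-set fit and 0 of 13 against replicates 4 and 5. Over all genes 4.85%, 0.897% and 0.21% were called lower, in the same order. Mcpt1, a mast cell protease chosen after its values were seen, was at 11.2, 10.9, 8.70, 3.00 and 3.56 CPM untreated and at 1.01, 1.48 and 1.5 CPM treated. The untreated sets themselves were apart, and the treated tumors lay below both. The difference was -2.13 (SE 0.18, edgeR adjusted p = 0.00069) in the 2-set fit and -1.31 (SE 0.24, edgeR adjusted p = 0.063) against replicates 4 and 5. Slc6a4, the serotonin transporter, also chosen after its values were seen, was at 3.00, 2.69, 3.95, 3.05 and 1.78 CPM untreated and at 0.639, 0.768 and 0.677 CPM treated. It was called lower against both untreated sets, at -1.81 (SE 0.29, edgeR adjusted p = 0.046) for replicates 4 and 5 and -2.20 (SE 0.21, edgeR adjusted p = 0.00031) for replicates 1 to 3, and its edgeR adjusted p against all 5 was 0.068. Ccr3, the eotaxin receptor of eosinophils, was at 8.20, 10.1, 3.40, 4.56 and 3.96 CPM untreated and at 2.34, 1.48 and 2.06 CPM treated, with -1.50 (SE 0.32, edgeR adjusted p = 0.031) in the 2-set fit. Siglecf and Il5ra, also receptors of eosinophils, were called there as well, at -1.13 (SE 0.26) and -1.95 (SE 0.47), with edgeR adjusted p of 0.042 and 0.046. These 3 calls were each lost without any 1 treated tumor, untreated replicate 1 or untreated replicate 4, those of Siglecf and Il5ra also without untreated replicate 2, while those of Mcpt1 and Slc6a4 remained without each library in turn.

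Myeloid genes gave few calls outside the comparison with replicates 1 to 3. Cxcr2, the neutrophil chemokine receptor, was at 18, 16.9 and 13.2 CPM in untreated replicates 1 to 3, at 3.52 and 4.05 CPM in replicates 4 and 5, and at 3.17, 3.19 and 3.30 CPM in the treated tumors. Its level was close to that of replicates 4 and 5, with a difference of -0.23 (SE 0.17, edgeR adjusted p = 0.45), and far from that of replicates 1 to 3, with -2.31 (SE 0.14, edgeR adjusted p = 5.2e-05). Ccl24, an eosinophil chemoattractant, was called lower against replicates 1 to 3 at -1.76 (SE 0.31, edgeR adjusted p = 0.0033), and was at 0.30 (SE 0.28, edgeR adjusted p = 0.56) against replicates 4 and 5. The resident peritoneal macrophage list had a median of -1 against replicates 1 to 3, with 5 of 10 genes called lower, and of -0.14 against replicates 4 and 5, with 0 called. Over all genes 4.85% and 0.21% were called lower, in the same order.

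Other genes were called against replicates 1 to 3 and not against replicates 4 and 5. Il1b, the interleukin 1 beta gene of myeloid cells, was at 78.9, 108 and 61.1 CPM in replicates 1 to 3, at 34.3 and 43.8 CPM in replicates 4 and 5, and at 35.9, 33.2 and 27.8 CPM in the treated tumors. Its difference was -1.35 (SE 0.19, edgeR adjusted p = 0.0013) against replicates 1 to 3 and -0.28 (SE 0.14, edgeR adjusted p = 0.30) against replicates 4 and 5, so the call depended on the untreated set. The same holds for Timd4, a phosphatidylserine receptor of resident macrophages, with -1.11 (SE 0.19, edgeR adjusted p = 0.0028) and 0.00 (SE 0.23, edgeR adjusted p = 1), and for Ncr1, an activating receptor of NK cells, with -1.07 (SE 0.19, edgeR adjusted p = 0.0036) and -0.41 (SE 0.23, edgeR adjusted p = 0.35). Gata6, the transcription factor of resident peritoneal macrophages, was at 19.3, 15.5, 17, 11.6 and 11 CPM untreated and at 7.79, 7.60 and 9.26 CPM treated. All treated values were lower, with -1.06 (SE 0.13, edgeR adjusted p = 0.00078) against replicates 1 to 3 and -0.47 (SE 0.14, edgeR adjusted p = 0.16) against replicates 4 and 5. Dcn, the fibroblast proteoglycan decorin, was at 119, 197, 129, 142 and 75 CPM untreated and at 62.3, 70.9 and 67.2 CPM treated, with -1.14 (SE 0.17, edgeR adjusted p = 0.0016) and -0.72 (SE 0.23, edgeR adjusted p = 0.18). The fibroblast and myofibroblast list of 11 genes had similar medians against both sets, -0.53 with 2 called lower and -0.43 with 0 called, in the same order. Over all genes 4.85% and 0.21% were called lower, again in that order. The summed level of the fibroblast and myofibroblast list was 514 to 762 CPM untreated and 435 to 507 CPM treated, without overlap. Il13, Prg4, Alox15, Retnlg, Mmp9, Il12b, Pi16 and Des were likewise called lower against replicates 1 to 3, as were Il4, Prox1 and Ahsg at levels under 0.5 CPM, and Cfb, Hspa1b and Lgals4 were called higher, with edgeR adjusted p of 0.05 or more against replicates 4 and 5 for each that was tested there. Cfd, a complement protease that fat cells secrete, was at 9.15, 7.96, 6.92, 14.5 and 6.04 CPM untreated and at 2.64, 2.75 and 2.96 CPM treated, without overlap. It was called lower against replicates 1 to 3 at -1.52 (SE 0.15, edgeR adjusted p = 0.00037) and in the 2-set fit at -1.71 (SE 0.26, edgeR adjusted p = 0.0091), the latter lost without treated replicate 1, and its edgeR adjusted p was 0.058 against replicates 4 and 5.

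Genes of the mesothelium divided into those that AB12 tumors carry at high level and those at low level. Msln, which encodes mesothelin, was at 221 to 505 CPM untreated and at 463, 632 and 484 CPM treated, and the keratin genes Krt8, Krt18 and Krt19 were likewise high in every d10 tumor, as mesothelioma tissue would hold them. Krt19 had a difference of 0.01 (SE 0.20, edgeR adjusted p = 0.99). Upk3b, a uroplakin of normal mesothelium, was at 5.67, 10.5, 4.93, 10.6 and 4.21 CPM untreated and at 1.40, 2.02 and 1.64 CPM treated. Upk1b, another uroplakin, was at 6.13, 6.28, 6.58, 5.36 and 3.19 CPM untreated and at 1.21, 1.94 and 1.52 CPM treated. The groups did not overlap for either, and the 2-set fit called both lower, at -2.11 (SE 0.35, edgeR adjusted p = 0.013) and -1.74 (SE 0.22, edgeR adjusted p = 0.0041). With all 5 untreated tumors the edgeR adjusted p was 0.099 and 0.074. Of the 13 mesothelium and mesothelioma genes tested, 4 were called lower in the 2-set fit and 0 higher, Gpm6a and Lrrn4 being the others, and the median was -0.71. The call of Upk1b remained without each library in turn, at -1.92 to -1.53, and that of Upk3b was lost without treated replicate 1 or 3, at -2.37 to -1.70. That of Gpm6a was lost without treated replicate 1 or 3 or untreated replicate 1, at -1.92 to -1.32, and that of Lrrn4 without any 1 treated tumor or untreated replicate 1, 2 or 4, at -1.73 to -1.05. Against replicates 4 and 5, 0 of the 13 genes were called, with a median of -0.59, and against replicates 1 to 3, 6 were called lower. Over all genes 0.897% were called lower in the 2-set fit, 0.21% against replicates 4 and 5 and 4.85% against replicates 1 to 3.

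Clec3b, which encodes the plasma and matrix protein tetranectin, was called lower against each untreated set taken alone. It was at 3.51, 5.95, 4.23, 8.85 and 2.60 CPM untreated and at 0.593, 0.913 and 0.734 CPM treated, without overlap. Its difference was -2.96 (SE 0.48, edgeR adjusted p = 0.047) against replicates 4 and 5 and -2.61 (SE 0.25, edgeR adjusted p = 0.00030) against replicates 1 to 3, and it was also called in the 2-set fit at -2.78 (SE 0.40, edgeR adjusted p = 0.0080), though not in the 2-set fit without treated replicate 1 (edgeR adjusted p = 0.051). Its edgeR adjusted p against all 5 untreated tumors was 0.074.

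Of the 6 adipocyte genes tested, 3 were called lower in the 2-set fit and 3 against replicates 1 to 3. Against replicates 4 and 5 or all 5 untreated tumors 0 were called. Over all genes 0.897% were called lower in the 2-set fit, 4.85% against replicates 1 to 3 and 0.21% against replicates 4 and 5. Adipoq, the adipocyte hormone adiponectin, was at 1.95, 1.74, 1.65, 3.17 and 1.51 CPM untreated and at 0.767, 0.624 and 0.579 CPM treated. Fabp4, a fatty acid carrier, was at 36.3, 30.5, 28.1, 33.9 and 17.8 CPM untreated and at 13.4, 12.5 and 12.1 CPM treated. No treated tumor reached the lowest untreated tumor for either gene. The 2-set fit called Adipoq at -1.63 (SE 0.27, edgeR adjusted p = 0.012), Fabp4 at -1.17 (SE 0.19, edgeR adjusted p = 0.011) and Cidec, a lipid droplet protein, at -1.50 (SE 0.29, edgeR adjusted p = 0.022), and the list's median was -1.07. Against all 5 untreated tumors Adipoq had an edgeR adjusted p of 0.13, and its call in the 2-set fit was lost without treated replicate 1 or 3, at -1.85 to -1.31. That of Fabp4 was lost without treated replicate 1 or 3 or untreated replicate 4, at -1.37 to -0.91, and that of Cidec without any 1 treated tumor or untreated replicate 1, at -1.71 to -1.21. The summed level of the list overlapped, at 83.4 to 149 CPM untreated and 82.0 to 99.5 CPM treated, and that of the skeletal muscle list was 2.02 to 2.85 CPM and 1.52 to 2.25 CPM. Of the other tissues, the smooth muscle list of the gut wall summed to 35.7 to 71.6 CPM untreated and 32.0 to 34.5 CPM treated, the pancreas acinar list to 1.02 to 2.39 and 0.977 to 1.20 CPM, and the liver list to 0.0594 to 0.464 and 0.0423 to 0.0698 CPM. How much fat, mesothelium or other peritoneal tissue came with each tumor is not known, and its part in the differences of lymphoid and stromal genes was not tested.

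**Figure D4:**
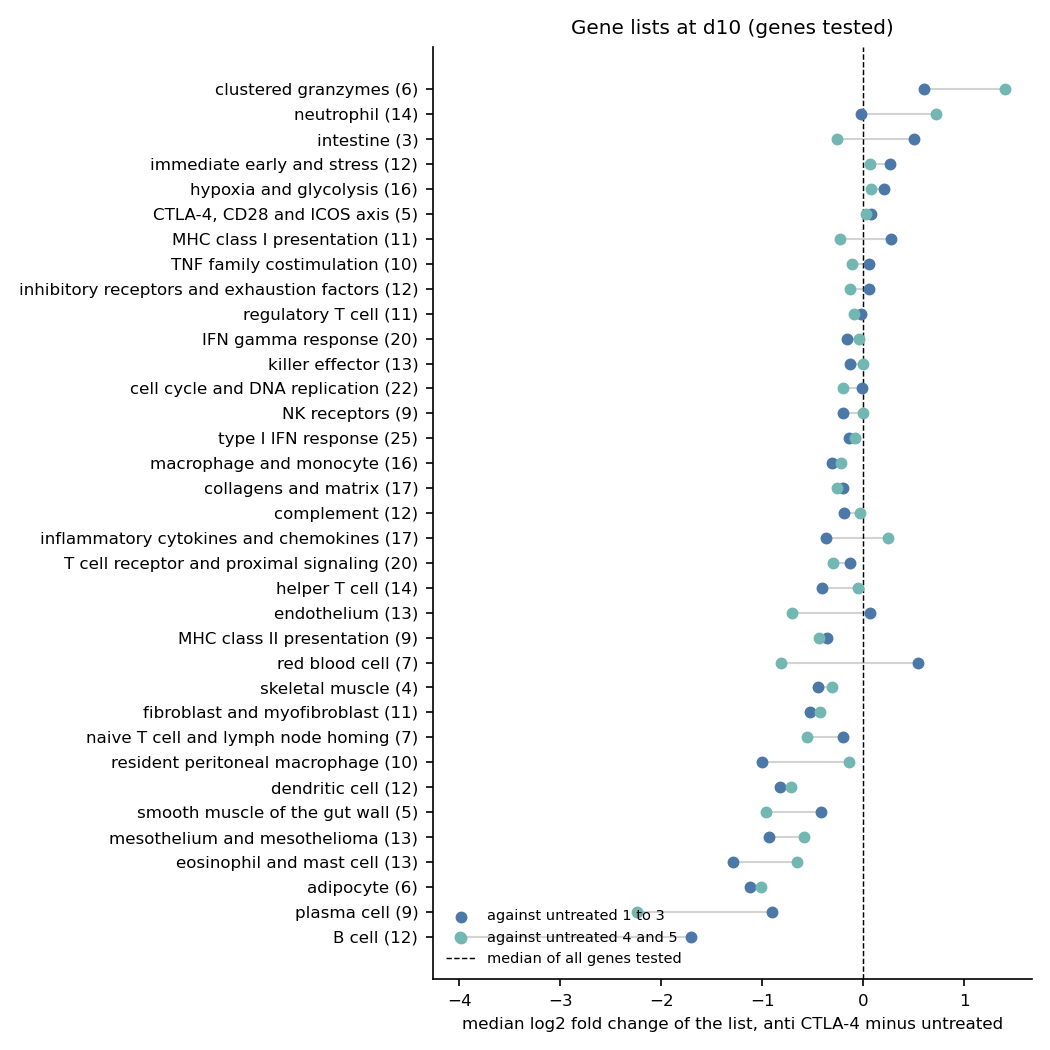
Median log2 fold change at d10 of the gene lists with at least 3 genes tested, treated minus untreated, against untreated replicates 1 to 3 and against replicates 4 and 5, with the number of genes tested in parentheses; the dashed line is the median of all genes. Of these lists that of B cells lies lowest against both sets, at -1.71 and -3.99, and the clustered granzymes lie highest against both sets.

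Of the 38 lists, 0 held a called gene against all 5 untreated tumors, 2 against replicates 4 and 5 (the B cell and plasma cell lists), 21 against replicates 1 to 3 and 12 in the 2-set fit. Summed levels were lower in the treated tumors without overlap for 3 of the 38 lists and higher for 0. Of the 414 list genes tested in the 2-set fit, 29 were called lower and 1 higher, beside 0.897% and 0.891% of all genes. The 1 called higher was Hspa1a, a heat shock chaperone, at 1.95, 1.36, 3.02, 2.49 and 3.00 CPM untreated and 3.88, 5.96 and 5.46 CPM treated. Its difference was 1.09 (SE 0.24, edgeR adjusted p = 0.035), and against all 5 untreated tumors the edgeR adjusted p was 0.20. The call was lost without any 1 treated tumor or without untreated replicate 1, 2 or 4, at 0.97 to 1.26. The cell cycle and DNA replication list of 22 genes had 0 called in any of the 4 fits and a median of -0.06 against all 5 untreated tumors, and the hypoxia and glycolysis list of 16 genes had a median of 0.12. Eno1, a glycolytic enzyme of that list, was called higher against replicates 1 to 3 at 1.14 (SE 0.10, edgeR adjusted p = 0.00025), and had a difference of 0.00 (SE 0.14, edgeR adjusted p = 0.99) against replicates 4 and 5.

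Genes called higher against replicates 4 and 5 and in the 2-set fit were mostly genes with near-identical copies. A near copy is a transcript of another gene with at least 95% identity over at least 50% of the longest transcript. Such a copy existed for 53 of the 60 genes called higher against replicates 4 and 5 (88.3%) and 10 of the 36 called lower (27.8%), and for 109 of the 159 genes called higher in the 2-set fit (68.6%), beside 1522 of 17839 genes tested (8.53%). Pseudogene counts chose replicates 4 and 5, so the pseudogenes among these calls are a description. Protein coding genes called lower in the 2-set fit had a near copy in 3 of 127 cases (2.36%) and those called higher in 11 of 27 (40.7%), beside 643 of 14402 protein coding genes tested (4.46%). Hspa1a, Hspa1b, Eno1 and Cfb, named above as called higher, each had a near copy, and Lgals4 did not.

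The ribosomal protein gene Rpl9 shows how close such copies are. It is printed with its copy Rpl9-ps6, which Gencode vM21 annotates as a protein coding gene, because a read inside such a stretch maps uniquely only where it spans a base that differs. Rpl9 lies on the minus strand of GRCm38 at chr5:65388364-65391444 and Rpl9-ps6 on the minus strand at chr19:32465865-32466578. Over coding sequences of 579 bases the pair differs at 1 base. The stretch shown is bases 27 to 266 of the coding sequences, from the Gencode vM21 transcripts, 5′ to 3′ on the coding strand, and the capital marks the base that differs.
Rpl9: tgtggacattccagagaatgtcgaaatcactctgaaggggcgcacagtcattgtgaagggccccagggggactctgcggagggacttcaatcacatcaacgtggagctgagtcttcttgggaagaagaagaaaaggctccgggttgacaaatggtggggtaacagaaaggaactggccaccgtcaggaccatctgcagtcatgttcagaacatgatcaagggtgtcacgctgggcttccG
Rpl9-ps6: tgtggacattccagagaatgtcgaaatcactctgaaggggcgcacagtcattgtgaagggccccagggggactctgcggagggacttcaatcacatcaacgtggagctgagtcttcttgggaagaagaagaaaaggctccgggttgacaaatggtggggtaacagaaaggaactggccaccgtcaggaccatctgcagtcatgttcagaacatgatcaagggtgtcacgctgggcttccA

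Ftl1, which encodes an iron storage subunit and was chosen after its values were seen, was at 131, 180, 89.7, 337 and 420 CPM untreated and at 483, 563 and 506 CPM treated. Ftl1-ps1 was at 8.74, 9.06, 8.92, 4.43 and 4.54 CPM untreated and at 15.1, 15.4 and 11 CPM treated. The treated tumors were above all untreated tumors for both, but the untreated sets had opposite orders, with Ftl1 higher and Ftl1-ps1 lower in replicates 4 and 5. Ftl1 differed by 0.45 (SE 0.12, edgeR adjusted p = 0.14) from replicates 4 and 5 and by 1.96 (SE 0.21, edgeR adjusted p = 0.00044) from replicates 1 to 3. Ftl1-ps1 was called higher against replicates 4 and 5 at 1.61 (SE 0.17, edgeR adjusted p = 0.021), and its difference of 0.64 (SE 0.14) from replicates 1 to 3 was under the 2-fold limit.

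Rpl9-ps6 was at 6.81, 6.71, 10.4, 2.09 and 3.29 CPM untreated and at 8.19, 9.54 and 6.69 CPM treated, with 1.60 (SE 0.24, edgeR adjusted p = 0.039) against replicates 4 and 5 and 0.04 (SE 0.20, edgeR adjusted p = 0.90) against replicates 1 to 3. Rpl24, another ribosomal protein gene, was at 15.1, 13.7 and 16.2 CPM in replicates 1 to 3, at 1.96 and 2.49 CPM in replicates 4 and 5, and at 6.09, 7.03 and 4.88 CPM in the treated tumors. It was called higher against replicates 4 and 5, at 1.43 (SE 0.21, edgeR adjusted p = 0.040), and lower against replicates 1 to 3, at -1.31 (SE 0.15, edgeR adjusted p = 0.00056). Rsrp1, an arginine and serine rich protein gene, was at 67.8, 116, 140, 52.8 and 36.2 CPM untreated and at 164, 166 and 125 CPM treated, with 1.76 (SE 0.20, edgeR adjusted p = 0.022) against replicates 4 and 5. Clec2d, a ligand of an inhibitory NK cell receptor, was at 24.2, 38.9, 45.4, 11.1 and 11.2 CPM untreated and at 31.9, 35.8 and 28.2 CPM treated, so the treated tumors lay within the range of replicates 1 to 3 and above replicates 4 and 5. Lars2, the mitochondrial leucyl-tRNA synthetase gene, chosen after its values were seen, was at 467, 1444, 596, 2510 and 1195 CPM untreated and at 3320, 3800 and 3375 CPM treated, and was called higher in the 2-set fit at 1.49 (SE 0.34, edgeR adjusted p = 0.036), though not without any 1 treated tumor, untreated replicate 1 or untreated replicate 5. The part of the library differences in these values was not tested.

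When each of the 8 libraries was left out of the 2-set fit in turn, 59 of its 319 calls remained in all 8 fits, 45 of them higher and 14 lower. Of the 45, 36 were pseudogenes. Of the 15 protein coding genes that remained, 11 were lower, and besides Foxp3, Xcr1, Mcpt1, Slc6a4, Upk1b and Cxcr2 these were Car3, Mcpt2, Efemp1, Pkhd1l1 and Spon2, chosen after their values were seen. Car3, a carbonic anhydrase abundant in fat and muscle, was at 12.5, 9.56, 7.22, 16.6 and 6.93 CPM untreated and at 3.19, 1.59 and 2 CPM treated, a difference of -2.24 (SE 0.34, edgeR adjusted p = 0.0091). Efemp1, an extracellular matrix glycoprotein, was at 5.33, 6.00, 5.48, 4.34 and 2.43 CPM untreated and at 1.76, 1.59 and 1.62 CPM treated, a difference of -1.39 (SE 0.20, edgeR adjusted p = 0.0075). The 4 higher genes were Ftl1, Ftl1-ps1, Gm11361 and Gm11273. Leaving out 1 library keeps both untreated sets in the comparison, so a call that remains can still rest on 1 set. Cxcr2 and Ftl1 were under the 2-fold limit against replicates 4 and 5 and beyond it against replicates 1 to 3.

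The treatment difference at d10 was set against that at d14, where 3 treated and 3 untreated tumors were available, in an edgeR fit over 14 libraries. The effect at d14 minus that at d10 was called for 2196 of 18574 genes (11.8%), 1797 with a higher value at d14 and 399 with a lower one. Treated d14 replicates 1 and 3 held pancreas genes, with an acinar list sum of 3300, 3.94 and 1118 CPM in the treated d14 tumors against 0.643 to 1.77 CPM in the untreated d14 tumors. Without these 2 libraries, a choice made after seeing the data that leaves 1 treated d14 tumor assumed to vary like the other groups, 771 of 19908 genes (3.87%) were called. On the scale of all 17 libraries, Foxp3 was at 0.227, 0.439 and 0.508 CPM in treated d10 tumors and at 2.34, 3.25 and 3.07 CPM in treated d14 tumors, with 0.874, 0.900 and 1.86 CPM in untreated d14 tumors. The treated tumors thus lay below the untreated ones at d10 and above them at d14, and the difference between the effects was 3.87 (SE 0.54, edgeR adjusted p = 0.0024). Cd4 had the same change of order, with 3.19, 2.07 and 4.57 CPM untreated and 9.02, 10.2 and 8.12 CPM treated at d14, and a difference between the effects of 2.14 (SE 0.34, edgeR adjusted p = 0.0034). It was 1.05 (SE 0.24, edgeR adjusted p = 0.011) for Cd8a, 1.51 (SE 0.27, edgeR adjusted p = 0.0043) for Gzmb, 4.17 (SE 1.28, edgeR adjusted p = 0.038) for Ms4a1, 3.56 (SE 0.80, edgeR adjusted p = 0.0098) for Upk3b and 5.11 (SE 0.84, edgeR adjusted p = 0.0036) for Clec3b. For Prf1 the difference of 0.82 (SE 0.25, edgeR adjusted p = 0.036) was under the 2-fold limit, and for Pdcd1 it was 0.35 (SE 0.33, edgeR adjusted p = 0.51). Ms4a1, Upk3b and Clec3b were named because they were called lower at d10. The d10 effect is subtracted here, so that choice favoured a positive value for them. Without treated d14 replicates 1 and 3, Foxp3 (4.01, edgeR adjusted p = 0.029), Cd4 (2.27, edgeR adjusted p = 0.029), Gzmb, Upk3b and Clec3b were still called, while Cd8a (1.13, edgeR adjusted p = 0.064) and Ms4a1 (4.04, edgeR adjusted p = 0.14) were not.

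**Figure D5:**
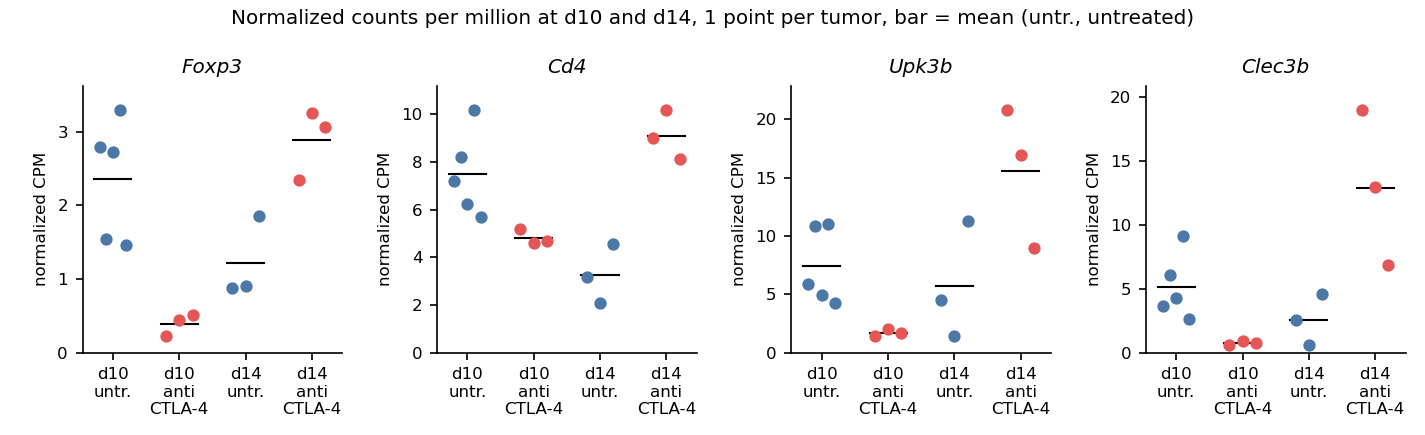
Normalized CPM of Foxp3, Cd4, Upk3b and Clec3b in untreated and treated tumors at d10 and d14; each point is 1 tumor, each bar the mean of its group, and every vertical axis starts at 0. The treated tumors lie below the untreated ones at d10 in all 4 genes, and above every untreated d14 tumor for Foxp3, Cd4 and Clec3b.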

How the data were processed

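RNA-seq of 8 d10 tumors was used, with the 17 libraries of the series for the comparison with d14. The authors made libraries by KAPA RNA HyperPrep, aligned paired reads of 75 or 100 bases to GRCm38 using TopHat2 2.0.14, and counted those that mapped uniquely per gene of Gencode vM21 by HTSeq. The table they deposited holds whole-number counts for 55450 genes, not normalized. The strand setting and the instrument of each library are not given in the sources used here.

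Counts were tested in R 4.3.3 with edgeR 4.0.16 (filterByExpr, TMM, quasi-likelihood test). A gene was called at a Benjamini-Hochberg adjusted p under 0.05, taken over all genes of the fit, with a log2 fold change beyond 1 in size; SE is the size of the fold change on the log2 scale over the root of F. Fits held the d10 tumors compared. The 4 fits took as untreated tumors replicates 1 to 5, replicates 4 and 5, replicates 1 to 3, and both sets as separate groups. The fit was tested on simulated data. Near copies were found with blastn 2.17.0. Between replicates of a group the chi-square statistic per gene was 18.5 to 268 over 13 pairs, so none was a library deposited in duplicate. Counting error is small beside the spread between tumors.

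Named genes were a fixed set of CTLA-4 axis, T cell, killer and interferon genes, up to 4 called genes per direction of each of 38 gene lists with the largest change, and the protein coding genes with the largest change and no overlap, up to 10 per direction against all 5 untreated tumors and up to 5 against replicates 4 and 5, with a mean of at least 5 CPM in the higher group. Members, lists and the 2 untreated sets were chosen with earlier results of these data known. Alternatives were DESeq2 1.42.0, no TMM, other count filters, all 17 libraries in one fit, thinned counts, only protein coding genes, fits without 1 replicate, and the replicate number as a block, and, chosen after seeing the data, the 2-set fit and its variants. Plots used matplotlib 3.10.9 (Python 3.11.15).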

Additional observations from a re-analysis of the deposited data

Results flagged for a closer look

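In the 5 untreated d10 tumors, 106 genes and list sums were checked for a tumor far from the others, by the gap of the highest or lowest tumor to its neighbour as a share of the whole range, with 0.71 as the limit. Of these, 10 passed it, 9 of them at replicate 4; chance flags about 1 in 20 groups. B cell genes made up most of them. Replicate 4 was far above the other untreated tumors for Cd79a (0.848), Ms4a1 (0.841), Fcer2a (0.81), Cr2 (0.776), Pou2af1 (0.729) and the summed B cell list (0.853), and also for Cxcr5 (0.842), Btla (0.817) and Adipoq (0.735). For Clec9a (0.905) replicate 5 was far below the other 4. These genes share cell types, so the flags are not independent of each other.

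The effect of anti CTLA-4 at d14 differed from that at d10, tested as an interaction in edgeR over 14 libraries, for several named genes. The log2 effect at d14 minus that at d10 was 3.87 for Foxp3, 2.14 for Cd4, 1.18 for Cd3e, 1.05 for Cd8a, 1.44 for Cd8b1, 1.29 for Icos, 1.51 for Gzmb and 1.35 for Ifng. Among B cell genes it was 4.38 for Cd79a, 4.17 for Ms4a1, 5.5 for Fcer2a and 4.12 for Pou2af1, and for Clec3b it was 5.11. These B cell genes and Clec3b were named because they were called lower at d10. The d10 effect is subtracted here, so that choice favoured a positive value for them. The edgeR adjusted p was 0.046 for Ifng, the one nearest to the threshold, and 0.0024 for Foxp3. All untreated d10 tumors entered this test, so the library sets described for d10 also enter it. Without treated d14 replicates 1 and 3, which held pancreas genes, the calls of Icos, Cd8a, Ifng, Cd79a, Ms4a1, Fcer2a and Pou2af1 were lost, with edgeR adjusted p of 0.064 to 0.14, and those of Foxp3, Cd4, Cd3e, Cd8b1, Gzmb and Clec3b remained.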

How the results depend on the processing

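Against all 5 untreated tumors the count of called genes was 3. It was 223 with DESeq2, 0 without TMM, 40 with all genes of at least 1 count, 7 with at least 10 counts in every library, 77 with all 17 libraries in one fit and 0 for protein coding genes only. Leaving out 1 replicate gave 0 to 115. With the 2 sets as separate groups, chosen after seeing the data, it was 319, of protein coding genes alone 165, and without untreated replicates 1 to 5 in turn 100, 231, 440, 154 and 577, and without treated replicates 1 to 3 in turn 70, 134 and 179. Against replicates 4 and 5 the count was 96, with DESeq2 394, without TMM 59, with at least 1 count 824, with at least 10 counts 58, with all 17 libraries 203, for protein coding genes 7, with 8 d10 libraries in one fit 160, and 0 to 682 when 1 replicate was left out. Against replicates 1 to 3 it was 1152, with at least 1 count 1769, with at least 10 counts 705 and for protein coding genes 574, and 857 to 1247 without 1 replicate. The cause of these changes was not tested, beyond the fewer genes that a filter leaves. Thinned counts left all 3 counts within 1.5 times.

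With the replicate number as a block, 1210 genes were called against all 5 untreated tumors; replicates 4 and 5 then have blocks of their own, so the pairs of replicates 1 to 3 alone carry the contrast. Deviations of same-numbered tumors from their group means had r = 0.094, 0.012 and -0.072. The untreated mean was that of all 5 tumors, so the difference between the sets enters these deviations. The r values therefore cannot decide whether same-numbered tumors were paired. In the comparison with replicates 1 to 3 the block gave 1133. No paired analysis was possible because treated replicates 1 to 3 share no number with untreated replicates 4 and 5, in that comparison.

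Of genes not called, with differences near 0 against all 5 untreated tumors, some changed sign. Cd28 was at -0.013 without TMM, -0.011 with the block, -0.113 to 0.124 without 1 replicate, and -0.022, -0.031 and -0.11 in the 2-set fit without untreated replicate 1, untreated replicate 5 and treated replicate 1. Gzmb was at -0.014 without TMM, -0.146 with the block, -0.089 to 0.11 without 1 replicate and -0.027 in the 2-set fit without treated replicate 1. Lag3 was at 0.259 with the block, -0.178 to 0.055 without 1 replicate and 0.024 in the 2-set fit without untreated replicate 2. Icos was at -0.004 to 0.326 and Cxcl10 at -0.107 to 0.006 without 1 replicate, and Cxcl10 at 0.02 and 0.003 in the 2-set fit without untreated replicate 4 and treated replicate 3. Over the genes named, 1107 values kept direction and call, 116 lost the call, 15 gained it and 24 changed sign. Ctla4 could not be measured from these counts, and the reason was not tested.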
